A study of Homo sapiens with 12 samples.

Results

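A set of 9 microRNA names linked to the tumour suppressor p53 was examined across all arrays of the series. The rule was a match to listed names, drawn up with earlier results of these data known: hsa-miR-34a, hsa-miR-34b, hsa-miR-34c-3p, hsa-miR-34c-5p, hsa-miR-192, hsa-miR-194, hsa-miR-215, hsa-miR-143 and hsa-miR-145, and all 9 were on the array among 851 human microRNA names. The species prefix is left out from here on. Of the 9, miR-34a was detected in control shRNA cells under vehicle and miR-34b on 2 of the 3 arrays of control shRNA cells under metformin. The other 7 were not detected on any of the 12 arrays.

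The cells were of the SUM159 line, from a human breast cancer without hormone receptors or HER2 amplification. One population stably carried a scrambled control shRNA and the other an shRNA that targets Dicer, the enzyme that releases mature microRNAs from their hairpins, both from the lentiviral vector PLKO.1. All cells grew with serum, insulin and hydrocortisone, and were exposed for 24 h to PBS as the vehicle or to the antidiabetic drug metformin at 0.5 mM. The 4 groups were control shRNA with vehicle, Dicer shRNA with vehicle, control shRNA with metformin and Dicer shRNA with metformin, each with 3 replicates that the labels call biological. The microRNA arrays hold no probe for Dicer RNA, so the knockdown was not measured here.

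The miR-34 genes are among the best known direct transcriptional targets of p53, and their products repress regulators of the cell cycle and of cell survival such as cyclin-dependent kinases, MET and BCL2. The miR-192, miR-194 and miR-215 genes are also induced by p53 and are abundant in liver and gut epithelium, where miR-192 and miR-215 share targets. For miR-143 and miR-145, p53 is known to promote the cutting of the primary transcript by Drosha, and both are abundant in smooth muscle and fibroblasts.

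The mature sequences show which of these names can address the same targets. They are RefSeq sequences of GRCh38.p14, written 5′ to 3′, with the seed (bases 2 to 8), the stretch that pairs with target messages, in capitals. The name miR-34b on this array is the strand now called miR-34b-3p. Entries were matched for 8 of the 9 members. The member without a match, miR-34c-5p, is listed as having the same seed as miR-34a, but its sequence is not shown. The same-seed relatives miR-449a and miR-449b are shown for comparison with miR-34a.
miR-34a: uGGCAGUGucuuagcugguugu
miR-449a: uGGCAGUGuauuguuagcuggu
miR-449b: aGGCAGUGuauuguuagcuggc
miR-34b: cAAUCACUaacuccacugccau
miR-34c-3p: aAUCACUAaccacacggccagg
miR-192: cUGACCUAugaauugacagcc
miR-215: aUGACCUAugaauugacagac
miR-194: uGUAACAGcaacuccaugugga
miR-143: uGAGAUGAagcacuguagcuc
miR-145: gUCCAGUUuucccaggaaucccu

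Among the sequences shown, the seed GGCAGUG is common to miR-34a, miR-449a and miR-449b, and the seed UGACCUA to miR-192 and miR-215. The latter pair is identical at 19 of 21 positions and differs by C1A and C20A, counted from 1 at the 5′ end with the base of miR-192 first. The 2 detected members have different seeds, GGCAGUG in miR-34a and AAUCACU in miR-34b.

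The mature miR-34a lies at chr1:9151735-9151756 on the minus strand, within the long non-coding host gene MIR34AHG. The miR-34b sequence lies at chr11:111512987-111513008 and miR-34c-3p at chr11:111513484-111513505, both on the plus strand and within the spans of BTG4 and MIR34BHG. Their hairpins are 417 bases apart. The miR-192 sequence at chr11:64891203-64891223, on the minus strand in MIR194-2HG, has 1 of the 2 miR-194 hairpins 108 bases away, with its mature sequence at chr11:64891404-64891425. The other miR-194 copy, at chr1:220118206-220118227 on the minus strand in the span of IARS2, is 194 bases between hairpins from miR-215 at chr1:220117916-220117936. The miR-143 sequence at chr5:149428978-149428998 and miR-145 at chr5:149430661-149430683 are both on the plus strand within the long non-coding gene CARMN, and their hairpins are 1622 bases apart.

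The arrays report a total gene signal for each name, a brightness on a linear scale, with a stated error and a detection flag. Every signal that carried the flag was above 3 times its stated error, and every undetected name holds a fixed placeholder of 0.1 in place of a signal. An undetected member therefore has no level here, and only a bound can be given. The arrays detected 130 to 204 human names each, with 176 to 204 on control shRNA vehicle arrays, 149 to 180 on Dicer shRNA vehicle arrays, 151 to 163 on control shRNA metformin arrays and 130 to 152 on Dicer shRNA metformin arrays. Both vehicle groups were on 1 slide and both metformin groups on another, so the drug and the slide cannot be told apart. The control and Dicer arrays held different positions on each slide, so the shRNA and the position cannot be told apart.

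Detection of the 9 members was sparse. Of the 108 readings (9 names on 12 arrays), 5 were detected, or 4.63%, against 19.0% of the readings of all human names. By name, 2 of 9 (22.2%) were detected on at least 1 array, against 263 of 851 (30.9%). In control shRNA cells under vehicle 1 of 9 members was detected, against 212 of 851 human names (24.9%), and in Dicer shRNA cells under vehicle 0 of 9, against 195 (22.9%). Under metformin, 1 of 9 was detected in control shRNA cells, against 174 human names (20.4%), and 0 of 9 in Dicer shRNA cells, against 164 (19.3%). The members' share was below that of all names in each group.

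**Figure D1:**
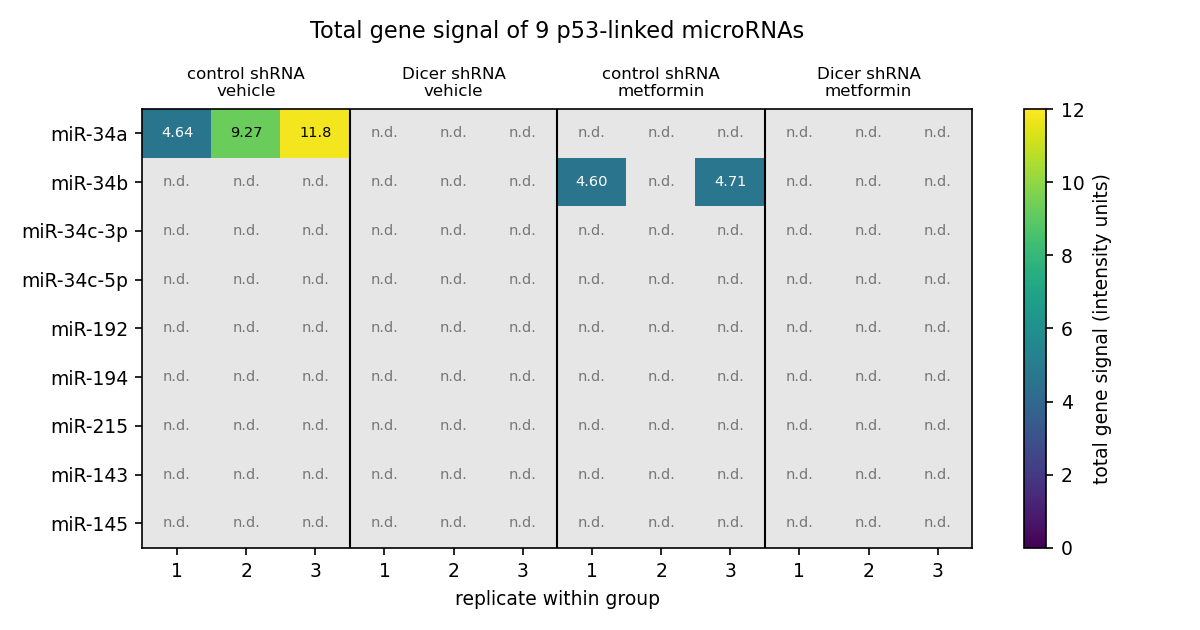
Total gene signal (intensity units, colour and printed value) of the 9 members on each of the 12 arrays, with the replicate number within each group on the x axis and n.d. for not detected. The 5 detected readings are the 3 of miR-34a in control shRNA vehicle cells and the 2 of miR-34b in control shRNA metformin cells.

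In control shRNA cells under vehicle, miR-34a had a signal of 4.64 on replicate 1, 9.27 on replicate 2 and 11.8 on replicate 3, a mean of 8.57 ± 3.62 (SD, n = 3). It was not detected on any of the other 9 arrays. With undetected readings set to a floor, the control vehicle group therefore did not overlap the other groups. This separation is one of detection and not of measured levels, since an undetected reading has no level. Of all tested names, 63.0% did not overlap for the knockdown under vehicle and 91.8% for metformin in control shRNA cells. The 3 detections were not equally firm. The stated errors were 1.55, 1.79 and 2.35, which put the signal at 3.00, 5.19 and 5.02 times its error. The reading of 4.64 on replicate 1 stood just above 3 times its error (4.64 after rounding) and had the lowest signal-to-error ratio of the 176 human names detected on that array.

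Replicate 2 was 2.00 times and replicate 3 was 2.54 times as bright as replicate 1 for miR-34a. The median ratios over the 98 human names detected on all 12 arrays were 1.03 and 0.894, so the spread of miR-34a between replicates was not that of those names. The order of the replicates was not particular to miR-34a, while the size of the spread differed between names. Of the 20 names detected on the control shRNA vehicle arrays only, miR-34a included, 15 were dimmest on replicate 1 and 18 brightest on replicate 3. Against the name's own mean, replicate 1 of miR-34a lay at -0.88 log2. It lay at -0.96 for miR-199a-3p, -0.84 for miR-196b, -0.77 for miR-224 and -0.74 for miR-15a. The next lowest was let-7g at -0.43, and the remaining names lay above that. With the arrays brought to a common 75th percentile over the 98 names, the 3 miR-34a signals were 4.12, 7.75 and 10.4. Their mean was 2.79 ± 0.68 on the log2 scale (SD, n = 3).

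miR-34b, from the other miR-34 locus, was detected in a different group. In control shRNA cells under metformin its signal was 4.60 on replicate 1 and 4.71 on replicate 3, with errors of 1.31 and 1.27, or 3.50 and 3.71 times the error. It was not detected on replicate 2 of that group or on the 9 arrays of the other groups. With 1 of the 3 arrays undetected the group overlapped the others, and miR-34b was not among the 208 names that were tested, each detected on every array of some group. Its cluster partners miR-34c-5p and miR-34c-3p were not detected on any array, including the 2 that detected miR-34b.

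**Figure D2:**
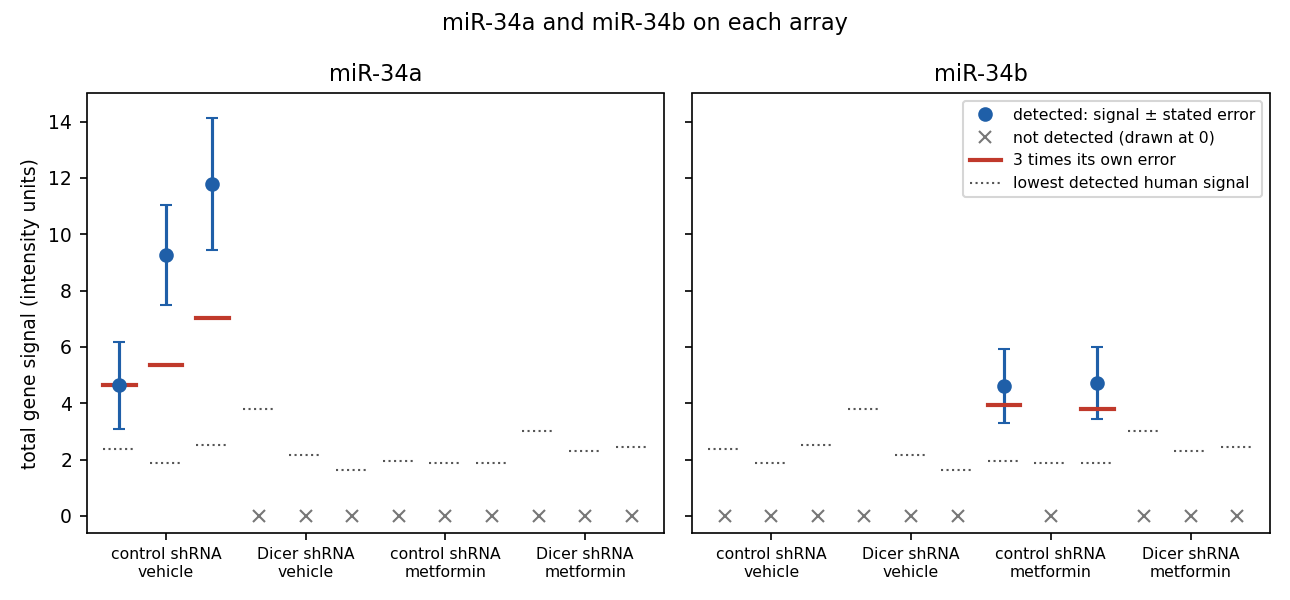
Total gene signal (intensity units, linear axis) of miR-34a and miR-34b on each array, with bars for the stated error of the reading, red marks at 3 times that error, crosses at 0 for undetected readings and dotted marks for the lowest detected human signal of the array. miR-34a on control shRNA vehicle replicate 1 sits on its red mark at 4.64, and replicates 2 and 3 lie above theirs.

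None of miR-192, miR-194 and miR-215 was detected on any of the 12 arrays, and neither were miR-143 and miR-145. For the clustered members this held for both partners of each hairpin pair. The array also lists the opposite strands of 6 of the precursors, miR-34a*, miR-34b*, miR-192*, miR-194*, miR-143* and miR-145*, and 0 of these 6 were detected on any array. The relatives with the miR-34a seed, miR-449a and miR-449b, which are abundant in multiciliated epithelium, were likewise not detected on any array.

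The authors' deposited table of log2 values, holds the same 2 members. In the authors' deposited table miR-34a is at 1.68, 2.94 and 3.30 in the 3 control shRNA vehicle samples and at 0 in the other 9. In that deposited table miR-34b is at 2.66 and 2.68 in control shRNA metformin replicates 1 and 3 and at 0 elsewhere. For both members the 0 values fall on the arrays where the detection flag was not set.

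The first comparison asked how Dicer knockdown changed these microRNAs under vehicle. miR-34a was lower in Dicer shRNA cells, detected on 0 of 3 arrays against 3 of 3, with a log2 difference of -1.20 ± 0.26 (SE; 95% interval -1.78 to -0.62; adjusted p = 0.00221, limma with Benjamini-Hochberg adjustment over 208 names). Signals under a floor of 3.01 were set to the floor before this test, so the difference is that between the control signals and the floor. miR-34a entered the test only because all 3 control vehicle arrays detected it, which builds a difference from undetected groups into this fit, and its p-values here and in the following comparisons are descriptions, not support. Of the 208 tested names 39 (18.8%) entered through that group alone. miR-34a was 1 of 1 member tested; over all tested names 124 of 208 were called in either direction (59.6%), 79 of them lower (38.0%), and 131 had groups that did not overlap (63.0%). The split of 79 lower and 45 higher depended on the scaling, with 119 and 14 when arrays were scaled to viral names, 90 and 32 with median scaling and 53 and 61 with quantile normalization. An exact two-sided permutation test of miR-34a over the 20 splits of the 6 arrays gave p = 0.1, the smallest that 3 against 3 arrays allow.

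The bound on the fall depended on what counts as the limit of detection. Against the lowest detected signal of each Dicer shRNA vehicle array, or the floor where that was higher, miR-34a was 2.14-fold higher in control cells. This is not a firm bound, because every flagged signal exceeded 3 times its own error. For miR-34a that limit was 4.64 to 7.04 on the arrays that detected it. With 3 times its mean error on those arrays as the limit, the control level was 1.43-fold higher than that limit. That limit was chosen after the data were seen and takes the same error for the Dicer shRNA arrays.

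The same 3 control vehicle arrays were set against control shRNA cells under metformin, so the following value shares its bright side, and the selection through it, with the one above. miR-34a was lower under metformin, detected on 0 of 3 arrays, with a log2 difference of -1.20 ± 0.26 (SE; adjusted p = 0.0013, limma). Its level under vehicle was 2.30-fold higher than the lowest detected signal or floor, which again is not a firm bound. With 3 times its mean error on the detecting arrays as the limit, it was 1.43-fold higher. This too is not a firm bound, since it takes the same error for the metformin arrays, which give none. In this comparison 183 of 208 names were called (88.0%), 84 of them lower (40.4%), and 191 had groups that did not overlap (91.8%). The 84 lower and 99 higher became 124 and 36 with scaling to viral names. With this share called, the miR-34a call is not a result about p53-linked names as such.

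Under metformin, Dicer shRNA and control shRNA cells could not be compared for miR-34a, and neither could metformin and vehicle in Dicer shRNA cells, because it was undetected in both groups each time. No member was called in either comparison, while 81 of 208 names (38.9%) were called for the knockdown under metformin and 51 (24.5%) for metformin in Dicer shRNA cells. Their splits also turned with the processing, from 52 lower and 29 higher to 15 and 36 with viral scaling (106 and 23 with median scaling) for the former, and from 38 lower and 13 higher to 25 and 33 with quantile normalization and 19 and 44 with the deposited log2 values for the latter. The limma interaction of metformin and Dicer shRNA for miR-34a was 1.20 ± 0.37 (SE; 95% interval 0.38 to 2.02; adjusted p = 0.0129), where 159 of 208 names were called (76.4%), 77 of them higher (37.0%), or 115 higher and 20 lower with viral scaling. Since 3 of the 4 groups lay at the floor, this value and its p restate the control vehicle level above the floor and test nothing further, and a further fall in cells that already lacked a detectable signal could not have been seen.

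Other signals of the arrays moved with these comparisons. The 4 detected control features named hur, which are not microRNAs, were lower by a median of -0.81 log2 in Dicer shRNA cells under vehicle and by -3.84 under metformin in control shRNA cells. The 10 viral microRNA names detected on all arrays moved the other way, by 0.87 and 1.38. Their part in the miR-34a result was not tested. In bulk RNA, fewer cells that carry a microRNA and less of it per cell cannot be told apart.

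Marker microRNAs of cell types were read as a check on the cells. Of 8 names known from mesenchymal-like breast cancer cells such as SUM159, 7 were detected and 5 of these on all 12 arrays, with miR-31 undetected. Their summed signal was 2999 to 3252 in control shRNA vehicle cells, 916 to 1189 in Dicer shRNA vehicle cells, 175 to 288 in control shRNA metformin cells and 463 to 613 in Dicer shRNA metformin cells. Of 6 luminal or epithelial names only miR-205 was detected, on all 12 arrays, and the miR-200 family was not detected on any array. The signal of miR-205 was 715 to 742 in control shRNA vehicle cells and 125 to 141 in Dicer shRNA vehicle cells. Under metformin it was 97.1 to 118 in control shRNA cells and 66.7 to 98.3 in Dicer shRNA cells. The liver and gut list, which is miR-122 with the members miR-192, miR-194 and miR-215, had 0 of 4 detected, and miR-126 of endothelium was undetected.

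The fibroblast and smooth muscle list contains miR-143 and miR-145, and its other 3 names were detected while these were not. miR-199a-3p, miR-199a-5p and miR-214 summed to 78.5 to 97.9 in control shRNA vehicle cells, 14.1 to 21.6 in Dicer shRNA vehicle cells, 0 in control shRNA metformin cells and 0 to 6.18 in Dicer shRNA metformin cells. Of 5 blood cell names, miR-223 and miR-486-5p were detected, on the control shRNA metformin arrays that also gave miR-34b, with a sum of 13.9 to 18.0 on all 3 arrays of that group and 0 elsewhere. Their part in the miR-34b readings was not tested.

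The detection pattern of miR-34a was shared by 19 other human names that were detected on all 3 control shRNA vehicle arrays and on no other array. They are let-7g, let-7i, miR-7, miR-15a, miR-17, miR-18a, miR-18b, miR-20a, miR-30b, miR-30c, miR-107, miR-128, miR-130a, miR-151-5p, miR-181a-2*, miR-185, miR-196b, miR-199a-3p and miR-224. Of the 20 names including miR-34a, 15 were dimmest on replicate 1 and 18 brightest on replicate 3. After scaling, 12 were dimmest on replicate 1 and 18 brightest on replicate 3. With detection set at 3.5 times the error, 14 of the 19 others kept the pattern and miR-34a did not, since its replicate 1 reading was then undetected. At 4 times the error 9 of the 19 kept it.

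**Figure D3:**
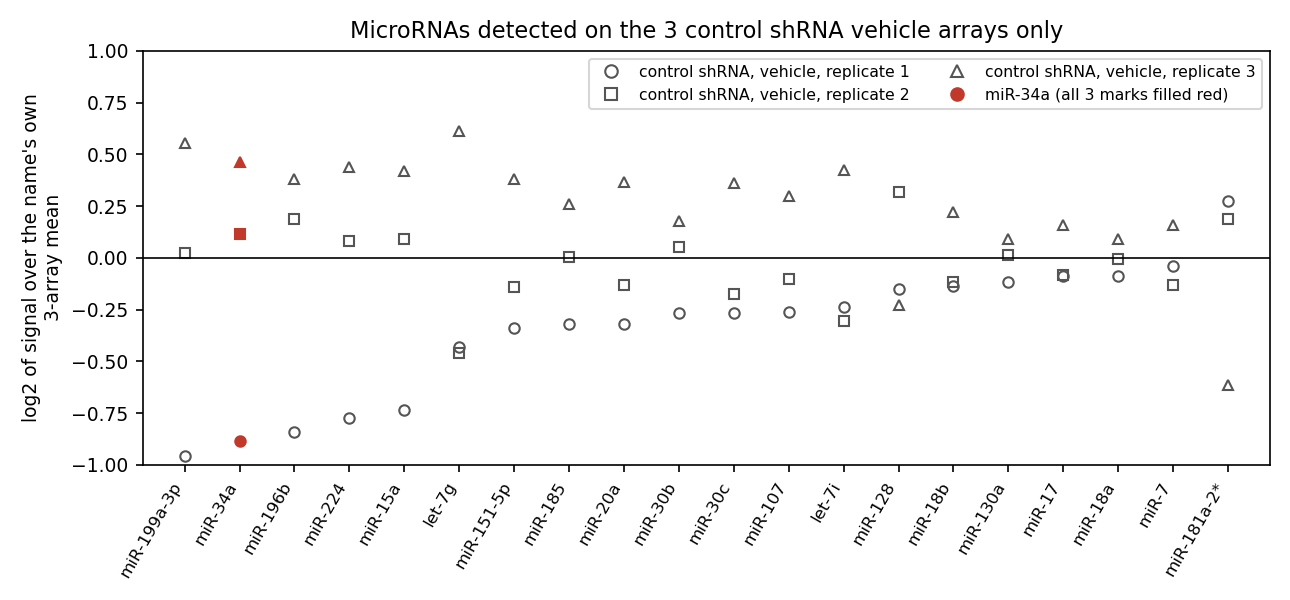
Each point is the log2 ratio of 1 control shRNA vehicle array's signal to the name's own mean over the 3 arrays, for miR-34a (red) and the 19 other names detected on those arrays only. miR-34a spans -0.88 on replicate 1 to 0.46 on replicate 3, next to miR-199a-3p, which spans -0.96 to 0.56.

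Over all 12 arrays, the names with the log2 pattern most like miR-34a were miR-199a-3p (Pearson r = 0.999), miR-224 (0.993), miR-15a (0.992), miR-196b (0.988) and miR-505 (0.976), as a description over arrays of which 9 lie at the floor for miR-34a. The signals of miR-199a-3p in the 3 control vehicle arrays were 4.94, 9.75 and 14.1, and those of miR-15a 5.84, 10.4 and 13.0. Both were dimmest on replicate 1 and brightest on replicate 3, as miR-34a was. miR-505 was detected on 2 arrays only.

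The pattern of miR-34b, detected on control shRNA metformin arrays and nowhere else, was shared by 17 other names, of which 9 were on all 3 arrays, 1 on 2 arrays (miR-659) and 7 on 1 array. The 9 include miR-223 and miR-486-5p of the blood cell list. miR-605, which is itself induced by p53 and represses MDM2, is among the 7, with a signal of 4.51 on replicate 3.

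Other microRNAs of the p53 network were read from 2 lists. The first list holds 9 microRNAs that p53 induces or helps to mature, of which 7 were detected and 6 tested. miR-15a, miR-16 and miR-107, 3 of the 6, were tested only because all control vehicle arrays detected them, so their direction was largely fixed by that filter and the list's counts and medians are given as a description. Under vehicle, 5 of the 6 were lower in Dicer shRNA cells, where 38.0% of all tested names were lower, and miR-149* was at 0. The median over the 6 was -1.37 log2 against 0 over all 208 tested names. miR-107, which targets Dicer and is induced by p53, had signals of 23.3, 26.1 and 34.4 in control vehicle cells and was not detected elsewhere, a difference of -2.99 ± 0.13 (SE). miR-16, whose maturation p53 promotes and which represses BCL2 and cyclins, differed by -2.34 ± 0.38, miR-15a of the same cluster by -1.41 ± 0.22 and miR-1246 by -1.32 ± 0.16. The adjusted p of these 4 ran from 2.1e-08 to 0.000363 in the limma fit. For miR-107, miR-16 and miR-15a it compares arrays selected by the filter with a floor that has no spread. These p-values are descriptions, not support.

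Under metformin in control shRNA cells the same list had 5 of 6 lower and 1 higher, where 40.4% of all tested names were lower and 47.6% higher, with a median of -1.61 against 0.52 over all tested names. miR-1246 fell from 118, 135 and 134 under vehicle to 4.06 and 3.99 on 2 metformin arrays and no detection on the other, a difference of -4.83 ± 0.16. miR-107 differed by -2.99 ± 0.13, miR-16 by -1.77 ± 0.38 and miR-22 by -1.44 ± 0.18. The riser, named after its value was seen, was miR-149* at 1.10 ± 0.07, detected on 3 of 3 metformin arrays with signals of 5.63 to 6.01 and on none of the control vehicle arrays. miR-149* was tested only because all control shRNA metformin arrays detected it. Its direction here and for the knockdown under metformin was therefore largely fixed by that filter. In Dicer shRNA cells metformin lowered 1 of the 6, miR-1246 (-1.28 ± 0.16), and 3 of the 6 were undetected in both groups. Of all tested names 18.3% were lower in that comparison. The knockdown under metformin had 1 of 6 higher, miR-1246 at 2.24 ± 0.16, and 1 lower, miR-149* at -1.10 ± 0.07, against 13.9% and 25.0% of all tested names.

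The second list is the miR-17/92 cluster, which p53 represses and MYC induces, with 6 of 6 names tested. miR-17, miR-18a, miR-19a and miR-20a, 4 of the 6, were tested only because all control vehicle arrays detected them, so their direction was largely fixed by the filter. As a description, all 6 were lower in Dicer shRNA cells under vehicle (median -2.93), where 38.0% of all tested names were lower and their median was 0. All 6 were also lower under metformin in control shRNA cells (median -2.93), where 40.4% of all tested names were lower and their median was 0.52. These comparisons share the control vehicle arrays. miR-19a differed by -4.34 ± 0.10 and miR-17 by -3.20 ± 0.09 for the knockdown under vehicle, and miR-19b by -6.55 ± 0.42 for metformin in control shRNA cells. In the remaining comparisons 4 of the 6 were undetected in both groups for the knockdown under metformin and 3 of the 6 for metformin in Dicer shRNA cells, with 1 higher (miR-92a at 0.83 ± 0.14) and 2 lower respectively.

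**Figure D4:**
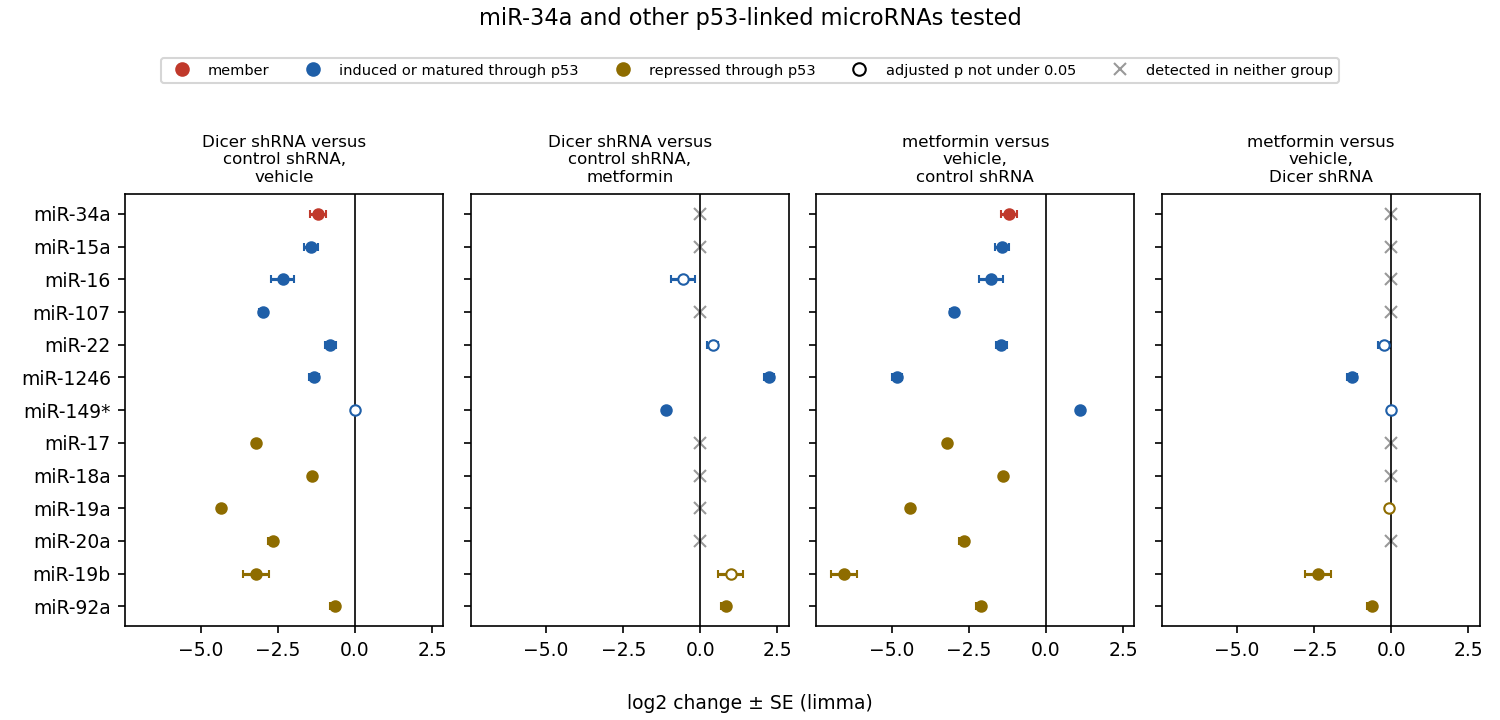
log2 change ± SE from limma (x axis) of miR-34a and the tested microRNAs of the 2 p53 network lists (y axis) in 4 comparisons, with open points for an adjusted p not under 0.05 and grey crosses for names detected in neither group. miR-34a at -1.20 lies left of 0 in the knockdown under vehicle and in metformin against vehicle in control shRNA cells, as do the other names drawn except miR-149*, and is a cross in the remaining panels.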

How the data were processed

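RNA samples carried Cy3 label and were read on single-channel Agilent arrays of human microRNAs; the labels' protocol names an mRNA kit. For every name the deposited array files give a linear intensity, headed total gene signal, together with an error and a flag for detection. Agilent Feature Extraction (version 9.1) is the tool in the submitters' processing notes, and how background was treated is not given in the sources used here. The authors' deposited series matrix has log2 values of unstated normalization and centring, in the direction of the array signal. Groups were taken from the titles, with which the source names of metformin samples conflict.

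Scaling brought every array to a common 75th percentile over the 98 human names found on all 12 arrays (factors 0.869 to 1.20). Values under 3.01 (log2 1.59), the across-array median of the 5th percentile among detected signals, were raised to that floor before log2. The fit (limma 3.58.1, R 4.3.3) covered 208 names detected throughout a group, with a mean for each of the 4 groups (degrees of freedom 8 residual and 1.85 prior). Calls needed a Benjamini-Hochberg adjusted p under 0.05 over these names. A group at the floor shows no spread, which understates the errors. Fold limits take the floor or, where higher, an array's lowest detected signal, and for miR-34a also 3 times its own error. No detected values were identical throughout 2 replicates. Intervals are 95%, and the number of arrays limits the precision.

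All 9 members were named, up to 4 of each list by largest change among calls, and the 5 names most like a tested member by Pearson r. Alternatives covered scaling, floor, filter, detection rule, array weights, replicate block, variance prior, samples fitted, the deposited values and each array left out. Members and lists were chosen with earlier results of these data known. Sequences were matched with Python 3.11.15; figures used matplotlib 3.10.9. The result of 1 further list is not reported here.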

Additional observations from a re-analysis of the deposited data

Results flagged for a closer look

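The interaction of metformin and Dicer shRNA for miR-34a was picked out because the metformin difference differed between the 2 cell populations by a test of the difference itself, with 1.20 ± 0.37 log2 (SE, adjusted p = 0.0129, limma). miR-34a was detected on 3 of 3 control shRNA vehicle arrays and on 0 of 9 others, so it entered the test through that group alone, and the value restates that group's level above the floor and tests nothing further. No other value of the members met a criterion for a closer look.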

How the results depend on the processing

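Across 25 distinct alternatives miR-34a kept its direction for the knockdown under vehicle and for metformin in control shRNA cells (-1.98 to -0.33 log2 in both), and 24 of 25 kept each call, which the filter through control vehicle arrays favours. Detection at 3 times the error equals the flag and the 75th percentile over all human names equals no scaling, so neither is counted. Quantile normalization lost both (-0.33, adjusted p = 0.113 and 0.0799, limma). The interaction kept its call in 20 of 24; it was lost with quantile normalization (0.33, adjusted p = 0.212), with no filter (0.0926), with the deposited log2 values (0.74, adjusted p = 0.0887) and without control shRNA metformin replicate 1 (0.93, adjusted p = 0.115). The cause was not tested.

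Members called were 1 for the knockdown under vehicle, 1 for metformin in control shRNA cells and 1 for the interaction. With quantile normalization, and with detection at 3.5 or 4 times the error (chosen after seeing the data), each count was 0, the latter because miR-34a was then not tested. The interaction count was also 0 with no filter and with the deposited values. Testing names detected on at least 1 array gave 2 for metformin in control shRNA cells, adding miR-34b (0.52 ± 0.18, adjusted p = 0.026), which had an adjusted p of 0.106 with no filter. At 4 times the error, members detected in control shRNA metformin cells were 0 in place of 1. Leaving out 1 array at a time gave 1 to 1 for the knockdown under vehicle, 0 to 1 for it under metformin, 1 to 2 for metformin in control shRNA cells, 0 to 0 in Dicer shRNA cells and 0 to 2 for the interaction. The added member was miR-34b, without control shRNA metformin replicate 2, which missed it (0.80 log2 for metformin in control shRNA cells). Detection in that group alone largely fixed the direction of miR-34b, so its p-values are descriptions, not support.

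With the replicate number as a block, miR-34a stood at -1.20 ± 0.25 (adjusted p = 0.00339 and 0.00204) and the interaction at an adjusted p of 0.0158. Deviations of same-numbered samples from their group means had r from -0.18 to 0.32 over 18 pairs, 7 of them over 0.1. Samples with different numbers were not compared, so whether the numbers pair the samples cannot be decided from these values. Scaling to viral names moved the median of all tested names by -0.67, -1.51 and 1.34 log2 for the knockdown under vehicle, metformin in control shRNA cells and the interaction, and miR-34a to -1.98 in the first and second of these. Over all tested names, calls for the knockdown under metformin went from 81 to 51 with viral scaling, 129 with median scaling and 126 with array weights, whose estimation did not converge. Calls for metformin in Dicer shRNA cells went from 51 to 24 with no filter and 82 with array weights, to 33 without Dicer shRNA vehicle replicate 2 and 32 without Dicer shRNA metformin replicate 3. A fit of only the groups compared was not run for the interaction, which needs all groups. Signal over background limits every other member, for which only non-detection is known.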
